A study of Rattus norvegicus with 12 samples.

Results

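The genes described here encode enzymes and carriers that take long- and medium-chain fatty acids from their free form to acetyl-CoA, and they were followed by RNA-seq through rat hearts sampled as left atrium. They were chosen by gene symbol from their known roles, 35 of the 21239 genes with counts. No measured value set the choice, but earlier results of these data were known when it was made. The 35 genes fall into 5 for activation, 5 for the carnitine shuttle, 6 mitochondrial acyl-CoA dehydrogenases and 9 for the later steps of mitochondrial beta-oxidation. A further 3 serve electron transfer from the dehydrogenases, 4 are peroxisomal enzymes, and 3 split CoA off or remove malonyl-CoA.

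Heart muscle takes most of its ATP from fatty acids. A fatty acid is first joined to CoA by an acyl-CoA synthetase, passed over the inner mitochondrial membrane as a carnitine ester, and then shortened in cycles of dehydrogenation, hydration, a further dehydrogenation and thiolysis, each cycle releasing acetyl-CoA and handing electrons to the respiratory chain. Very long and branched chains are first shortened in peroxisomes, and malonyl-CoA holds back the carnitine step.

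The study set untreated hypertensive rats against normotensive rats, and hypertensive rats given a drug against those given saline. Male rats, 14 weeks old at purchase, were dosed for 4 weeks: Wistar-Kyoto rats (WKY) and spontaneously hypertensive rats (SHR) with saline at 7.5 ml/kg/day, and further hypertensive rats with the angiotensin receptor blocker valsartan at 30.0 mg/kg/day (ARB) or with sacubitril/valsartan, which adds a neprilysin inhibitor, at 60.0 mg/kg/day (ARNI). Each group held 3 libraries of between 11252361 and 15823525 counted reads. For the 6 saline libraries the strain words of the title contradict the library name in brackets. The phenotype field sides with the title words, naming the hypertensive rat for the WKY-named libraries and leaving out the SHR-named ones, and the strain field reads Wistar-Kyoto for all 12 libraries. The bracketed names were followed here. If the title words were right in their place, each SHR and WKY value below would change places and each difference between them would change sign. Of the genes with at least 5 CPM (a gene's reads for each 1000000 counted in the library) in every library of one set and under 0.5 CPM in every library of the other, 1 was present in the WKY-named libraries against the 9 others and 5 were absent from them, while 0 set the SHR-named libraries apart from the 9 others in either direction.

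The libraries also differed in chamber. Myl2 encodes the ventricular regulatory myosin light chain and Myl7 its atrial counterpart. The share of Myl2 in the CPM of both was taken as a marker of ventricular RNA, not as its fraction. The Myl2 share was 99.6%, 99.9% and 99.97% in the WKY libraries, 0.0069%, 33.9% and 0.0015% in SHR, 0.025%, 0.042% and 33.3% in ARB, and 0.046%, 99.8% and 0.319% in ARNI. The label names left atrium throughout, yet Myl7 stood at 15.9, 3.30 and 0.889 CPM in WKY and 9.67 CPM in ARNI replicate 2, against 4478 to 11547 CPM in the other 8 libraries. Of 13 atrial cardiomyocyte markers 12 lay higher in every SHR library than in any WKY library, their summed level running from 1896 to 2297 CPM in WKY and from 33859 to 90691 CPM in SHR. Bmp10, an atrial signalling peptide, was at 0 in WKY replicates 1 and 2. Of 9 ventricular markers 7 lay lower in every SHR library, with sums of 44074 to 44449.6 CPM in WKY and 618 to 10755 CPM in SHR. Chamber and strain therefore cannot be told apart between WKY and SHR, and each result below is read beside the Myl2 share. In bulk RNA, fewer cells of a type and less RNA per cell cannot be told apart either.

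Of the 35 genes, 31 have an entry among the RefSeq windows of 250 bases before to 50 bases after a gene start (build GRCr8, whereas the reads were counted on Rnor_6.0). Cpt1b, Acadl, Decr1 and Acaa2 have none there. The windows were searched on both strands for 6 short motifs. AGGTCA and GGGTCA are half-sites of nuclear receptors, the class that holds the PPARs and the estrogen-related receptors. They occurred in 7 and 6 of the 31 windows, against 16.2% and 13.8% of all 33469 windows in the table. Among the windows of genes tested between SHR and WKY the shares were 12.5% and 14.1%. The extended half-site TNAAGGTCA, which overlaps AGGTCA, occurred in 0 of 31 windows (1.2% of all, 0.664% of tested genes). The E-box CACGTG occurred in 0 of 31 (6.42% of all, 8.93% of tested genes). GGGCGG, a GC box, occurred in 24 of the 31 windows. Among all windows it occurred in 33.1%, and among the windows of genes tested between SHR and WKY in 58.8%. CCAAT occurred in 13 of the 31 windows, against 37.5% of all and 36.8% of those of tested genes.
A few windows are shown for the genes on which the results below turn, with matches on either strand to the half-sites, the GC box and CCAAT in capitals. Hadha and Hadhb, the 2 subunits of the trifunctional protein, start head to head on opposite strands, and the 200 bases that lie in both of their windows are given on the Hadha strand (chr6:31907551-31907750, plus strand).
Hadha and Hadhb: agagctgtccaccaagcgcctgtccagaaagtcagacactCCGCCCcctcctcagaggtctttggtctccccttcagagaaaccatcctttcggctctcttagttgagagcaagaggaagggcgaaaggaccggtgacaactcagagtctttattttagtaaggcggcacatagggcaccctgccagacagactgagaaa
The 250 bases before the start of Acadm (chr2:245542865-245543114, minus strand), Acsl6 (chr10:38951911-38952160, plus strand) and Acsl4 (chrX:110803262-110803511, minus strand) come from genes whose levels moved most with the Myl2 share in either direction among those with a window.
Acadm: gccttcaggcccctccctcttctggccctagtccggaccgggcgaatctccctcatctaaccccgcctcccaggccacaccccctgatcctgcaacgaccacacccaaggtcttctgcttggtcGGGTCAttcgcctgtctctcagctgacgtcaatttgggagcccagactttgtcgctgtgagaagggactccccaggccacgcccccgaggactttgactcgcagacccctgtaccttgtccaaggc
Acsl6: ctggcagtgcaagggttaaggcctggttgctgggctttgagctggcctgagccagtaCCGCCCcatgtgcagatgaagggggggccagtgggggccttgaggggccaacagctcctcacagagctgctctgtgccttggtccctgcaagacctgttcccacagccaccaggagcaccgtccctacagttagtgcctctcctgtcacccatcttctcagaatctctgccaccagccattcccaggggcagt
Acsl4: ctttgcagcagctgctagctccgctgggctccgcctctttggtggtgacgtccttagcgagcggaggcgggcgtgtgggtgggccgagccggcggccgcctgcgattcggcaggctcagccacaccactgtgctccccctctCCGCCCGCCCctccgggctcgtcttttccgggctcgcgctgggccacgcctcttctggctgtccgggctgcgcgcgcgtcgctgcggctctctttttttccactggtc
The Acadm stretch holds 1 GGGTCA and no GGGCGG, the Acsl6 stretch 1 GGGCGG, the Acsl4 stretch 2 overlapping copies of GGGCGG, and the shared Hadha and Hadhb stretch 1 GGGCGG.

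Fatty acid oxidation transcripts took up more of the WKY libraries than of most SHR-strain libraries, and within each SHR-strain group 1 library stood apart. The summed level of the 35 genes was 17220.0, 16541 and 16544 CPM in WKY, 6174, 14118 and 6218 in SHR, 5792, 6311 and 12646 in ARB and 5907, 19837 and 9225 in ARNI. As means this was 16768 ± 391 in WKY, 8837 ± 4574 in SHR, 8249.8 ± 3816 in ARB and 11656 ± 7276 in ARNI (CPM, SD, n = 3). The high library of each group was the one with the highest Myl2 share of that group: SHR replicate 2, ARB replicate 3 and ARNI replicate 2. SHR and WKY did not overlap, and their means differed 1.90-fold, but SHR replicate 2 lay nearer to WKY than to its own group. Some markers of cell types differed between SHR and WKY too. The summed adipocyte markers ran from 926 to 1150.5 CPM in WKY and from 479 to 872 CPM in SHR, with 0 of the 5 tested called. The summed mesothelial markers ran from 56.2 to 76.1 CPM in WKY and from 192 to 405 CPM in SHR, with 4 of 5 called higher in SHR. Of 11 markers of all cardiomyocytes 7 lay lower in every SHR library and 1 higher, with 1 called lower, Myom1. The smooth muscle and pericyte sum ran from 336 to 403 CPM in WKY and from 183 to 291 CPM in SHR, with 1 of 6 called lower. Called lower were also 2 of 6 immune, 2 of 6 erythroid and 1 of 6 endothelial markers tested. Called higher was 1 of 2 skeletal muscle markers tested, and 0 of 8 fibroblast markers were called. Their part in the result was not tested. By step, the WKY mean was 2.31 times the SHR mean for the acyl-CoA dehydrogenases, 1.87 times for the later beta-oxidation enzymes, 1.84 times for activation, 1.78 times for the thioesterases and malonyl-CoA decarboxylase, 1.68 times for the carnitine shuttle, 1.66 times for electron transfer and 1.60 times for the peroxisomal enzymes.

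**Figure D1:**
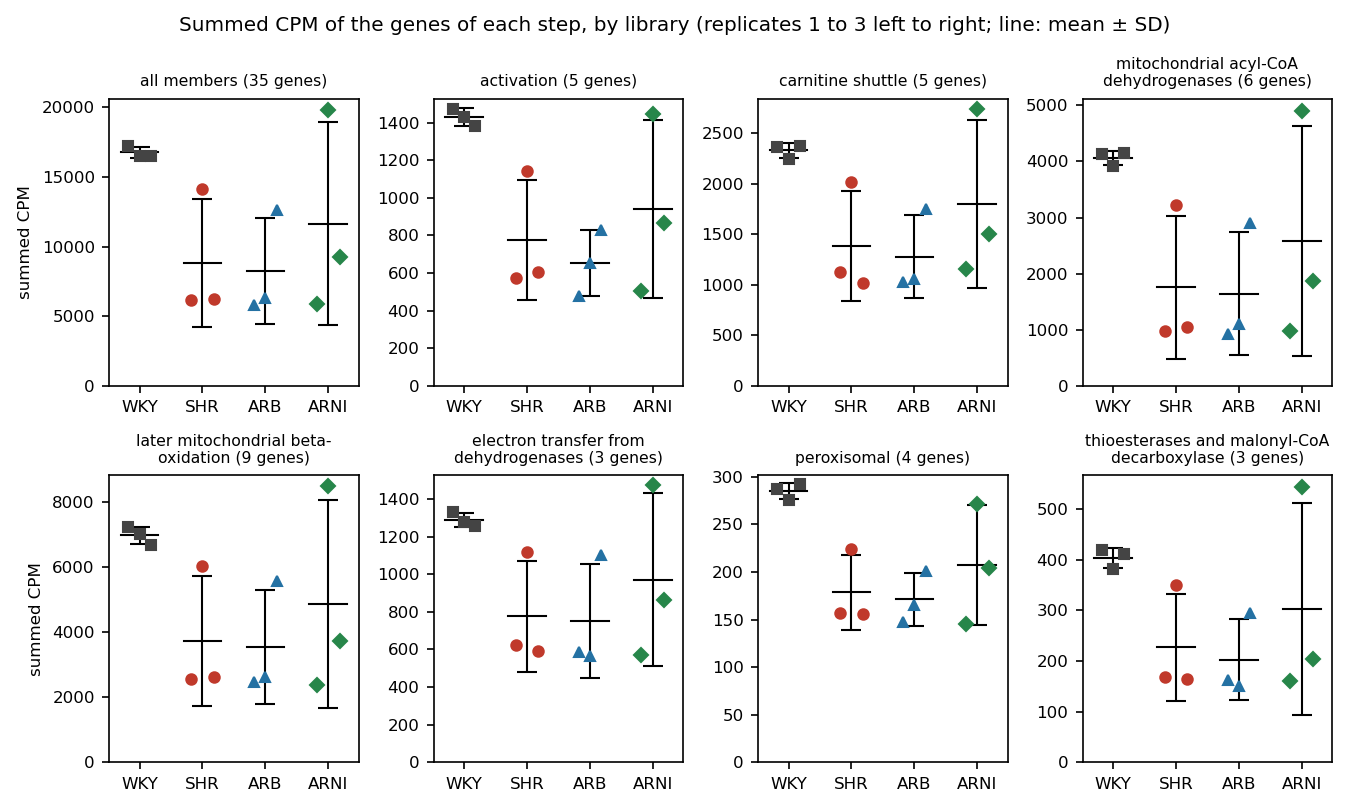
Summed CPM of the 35 genes and of each step (vertical axes, from 0) in the WKY, SHR, ARB and ARNI libraries, 1 point per library in the order of replicates 1 to 3, with the mean and SD of each group (n = 3). The WKY points sit close together, while SHR replicate 2, ARB replicate 3 and ARNI replicate 2 stand above the rest of their groups in the total and in all 7 steps.

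Between SHR and WKY, 32 of the 34 genes tested had a negative log2 fold change and 2 a positive one, with a median of -1.02 against 0.01 over all 13794 genes tested. 4 genes passed an adjusted p of 0.05 in edgeR's quasi-likelihood test, all lower in SHR: Hsd17b4, Etfa, Acaa1a and Cpt1b. The share of all genes called lower was 8.26%, and 4 of 34 is a share near that of all genes. At an unadjusted p under 0.05 stood 23 of the 34, and 5428 of all 13794 genes tested. DESeq2 called 22 of the 35, all lower, against 11.4% of all genes, and the verdicts given below for single genes are those of edgeR. Of the 35 genes 25 lay lower in every SHR library than in any WKY library, against 15.9% of all genes tested, and 2, Acsl4 and Acsl5, lay higher in every SHR library, against 33.7% of all genes. On library sizes scaled by TMM these counts were 27 and 1, against 22.9% and 24.5% of all genes. Acot1, a cytosolic acyl-CoA thioesterase, stayed between 0.064 and 3.17 CPM and was too low to be tested. Its 50-base reads may be shared with the near-identical Acot2. Without SHR replicate 2, the SHR library with a Myl2 share of 33.9%, 31 of 34 genes passed the test, 29 lower and 2 higher, and the median became -1.55. Calls rose over all genes as well in that fit, to 18.6% lower and 19.2% higher. With each other library left out in turn, 0 to 2 genes passed. When the Myl2 share was added as a covariate over all 12 libraries, 0 of 35 passed, and the median turned to 0.65. The shares of the 2 groups do not overlap, so that value is an extrapolation.

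**Figure D2:**
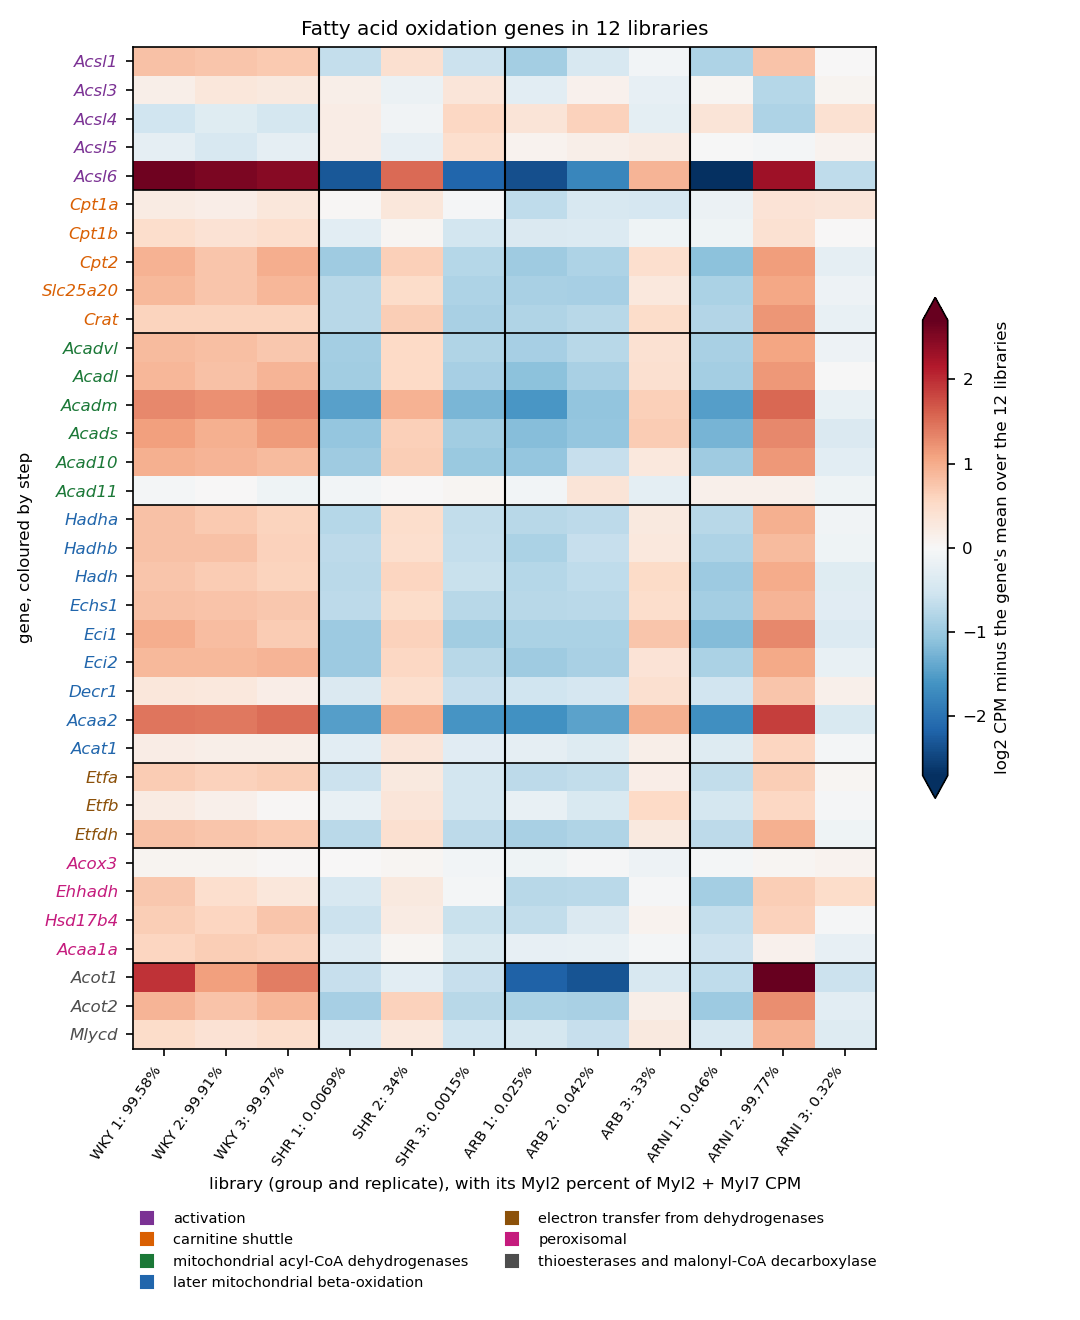
Heat map of the 35 genes (rows, grouped and coloured by step) in the 12 libraries (columns, with the Myl2 percent of Myl2 plus Myl7 CPM under each), as log2 CPM minus the mean of the gene over the 12 libraries, with colours saturating at the ends of the scale bar. The 3 WKY libraries and ARNI replicate 2 are red for most genes, SHR replicate 2 and ARB replicate 3 are pale red, and Acsl3, Acsl4, Acsl5, Acad11 and Acox3 do not follow the others. Acot1 rests on few reads.

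Activation is carried out by the long-chain acyl-CoA synthetases, and the 5 genes of this step had changes of both signs, none past the test. Acsl1 (gene ID 25288), the main synthetase of heart muscle, was at 1390.2, 1349.8 and 1302 CPM in WKY, 517, 1082 and 537 in SHR, 425, 591 and 765 in ARB and 452, 1374 and 806 in ARNI. All SHR libraries lay below all WKY libraries, with SHR replicate 2 the closest, and the log2 fold change was -1.03 ± 0.33 (SE, adjusted p = 0.0683). Acsl6 (gene ID 117243), a synthetase better known from brain, was at 40.2, 38.3 and 36.1 CPM in WKY, 1.34, 19.0 and 1.49 in SHR, 1.26, 1.93 and 12.4 in ARB and 0.758, 32.2 and 4.07 in ARNI. It had the most negative change of the 35, -2.50 ± 0.96 (SE, adjusted p = 0.105) and did not pass the test. SHR replicate 2 stood far above the other SHR libraries. Acsl4 (gene ID 113976), which prefers arachidonic acid, ran the other way at 7.93, 9.22 and 8.35 CPM in WKY, 13.4, 10.8 and 17.1 in SHR, 14.7, 17.9 and 9.67 in ARB and 14.7, 6.52 and 15.5 in ARNI. Its change of 0.55 ± 0.17 (SE, adjusted p = 0.0574) was the highest of the 35, with all SHR libraries above WKY, and likewise did not pass. Acsl3 and Acsl5 stayed within 8.18 to 17.5 CPM and 17.7 to 33.1 CPM.

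In the carnitine shuttle, the change between SHR and WKY was smaller in value for the 2 forms of the outer-membrane transferase than for Cpt2 and Slc25a20, which follow them, a difference that was not tested. Cpt1b (gene ID 25756), the muscle form of carnitine palmitoyltransferase 1 and the step that malonyl-CoA inhibits, was at 1040.4, 986 and 1027 CPM in WKY, 622, 775 and 534 in SHR, 569, 578 and 695 in ARB and 689, 1002 and 762 in ARNI. It fell by 0.79 ± 0.19 (SE) on the log2 scale in SHR (adjusted p = 0.036), with all SHR libraries below WKY. Cpt1b lies next to Chkb in the genome, and the counting is not stated to use strand, so reads of the pair may not be fully separated. Cpt1a (gene ID 25757), the form of liver and most other tissues, was at 82.9, 80.5 and 88.5 CPM in WKY, 72.9, 87.4 and 69.8 in SHR, 44.2, 52.4 and 52.2 in ARB and 64.0, 91.5 and 89.8 in ARNI. SHR and WKY overlapped, with a log2 fold change of -0.26 ± 0.14 (SE, adjusted p = 0.213).
Cpt2 (gene ID 25413), which turns the carnitine ester back into acyl-CoA inside the mitochondrion, was at 319, 283 and 329 CPM in WKY, 86.1, 261 and 98.8 in SHR, 86.2, 93.4 and 229.5 in ARB and 78.1, 365 and 141 in ARNI. The carrier between them, Slc25a20 (gene ID 117035), was at 292, 267 and 296 CPM in WKY, 94.6, 226 and 89.6 in SHR, 87.0, 85.2 and 194 in ARB and 88.8, 329 and 145 in ARNI. For both genes SHR lay wholly below WKY, at log2 fold changes of -1.17 ± 0.45 (SE, adjusted p = 0.106) and -1.17 ± 0.40 (SE, adjusted p = 0.0765), neither past the threshold. Crat, which moves acetyl groups on carnitine, overlapped between SHR and WKY, as SHR replicate 2, at 662 CPM, was above the WKY range of 629 to 634 CPM. The number of Cpt1b reads per Cpt1a read was 7.65 to 8.87 in SHR, 11.6 to 12.6 in WKY, 11.03 to 13.3 in ARB and 10.8, 10.9 and 8.49 in ARNI, of which replicate 3 lay inside the SHR range.

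The acyl-CoA dehydrogenases, which open each cycle and divide the work by chain length, showed the widest gap between the groups of any step. Acadvl (gene ID 25363), for very long chains, was at 709.8, 693 and 653 CPM in WKY, 209, 569.9 and 225 in SHR, 214, 234 and 524 in ARB and 216, 829 and 359.6 in ARNI. Acadl (gene ID 25287), for long chains, was at 1524, 1416 and 1554 CPM in WKY, 429.9, 1202 and 444 in SHR, 385, 451 and 1117 in ARB and 437, 1842 and 818 in ARNI. Acadm (gene ID 24158), for medium chains, was at 1369, 1311 and 1404 CPM in WKY, 201, 1057 and 237 in SHR, 186, 266 and 871 in ARB and 197, 1618 and 482 in ARNI. In each of the 3 genes the order of the libraries was nearly the same, with ARNI replicate 2 highest, WKY next, then SHR replicate 2 and ARB replicate 3, and the remaining 6 libraries low. The SHR to WKY log2 fold changes were -1.14 ± 0.42 (SE, adjusted p = 0.0953) for Acadvl, -1.22 ± 0.45 (SE, adjusted p = 0.0931) for Acadl and -1.54 ± 0.67 (SE, adjusted p = 0.137) for Acadm, with no overlap between the groups and none past the threshold. Without SHR replicate 2 the Acadm change was -2.81. Acads, for short chains, and Acad10 had the same layout over 76.2 to 447 CPM and 28.0 to 131 CPM. Acad11, a family member reported to act on long chains outside the main cycle, did not: it kept between 20.2 and 30.7 CPM in all 12 libraries.

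The later steps of the cycle are led by the trifunctional protein, whose alpha subunit Hadha holds the hydratase and long-chain dehydrogenase activities and whose beta subunit Hadhb holds the thiolase. Hadha (gene ID 170670) was at 1189, 1129 and 1044 CPM in WKY, 404, 956 and 436 in SHR, 409, 422 and 826 in ARB and 412, 1342 and 644 in ARNI. Hadhb (gene ID 171155) was at 1983, 1982 and 1766 CPM in WKY, 702, 1575 and 736 in SHR, 638, 746 and 1396 in ARB and 647, 2091 and 1067 in ARNI. Both genes, which share the head-to-head stretch printed above, had all SHR libraries below WKY, at -1.01 ± 0.37 (SE, adjusted p = 0.0926) and -1.04 ± 0.36 (SE, adjusted p = 0.0823) on the log2 scale. Their ratio kept within a narrow range, 1.56 to 1.77 Hadhb reads per Hadha read over the 12 libraries, while the level of Hadha itself ranged 3.32-fold. Acaa2, the mitochondrial thiolase for medium chains, was at 1176, 1153 and 1218 CPM in WKY, 153, 865 and 141 in SHR, 139, 158 and 837 in ARB and 136, 1562 and 324 in ARNI. It spanned 11.5-fold over the libraries, with a log2 fold change of -1.70 ± 0.74 (SE, adjusted p = 0.139). Hadh, Echs1, Eci1 and Eci2, the dehydrogenase, hydratase and isomerases of the cycle, also lay wholly below WKY in SHR. Decr1, the reductase for unsaturated chains, and Acat1, the acetoacetyl-CoA thiolase, overlapped between the groups, and none of the 9 genes of this step passed the test.

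Electrons from the acyl-CoA dehydrogenases pass to the flavoprotein ETF, made of Etfa and Etfb, and on to ubiquinone by way of Etfdh. Etfa (gene ID 300726) was at 504, 482 and 494 CPM in WKY, 209.9, 375 and 221 in SHR, 190.4, 197 and 353 in ARB and 197, 496 and 327 in ARNI. It fell by 0.996 ± 0.26 (SE) on the log2 scale in SHR (adjusted p = 0.0425). Its partner Etfb overlapped between SHR, at 189 to 339 CPM, and WKY, at 275 to 314 CPM. The number of Etfa reads per Etfb read was 1.68 ± 0.099 in WKY, 1.06 ± 0.138 in SHR, 0.901 ± 0.0831 in ARB and 1.17 ± 0.128 in ARNI (SD, n = 3). ARNI replicate 2, with a Myl2 share of 99.8%, had 1.25, below the WKY range of 1.61 to 1.79. Etfdh (gene ID 295143) was at 514, 501 and 486 CPM in WKY, 179, 403 and 183 in SHR, 162, 169 and 356 in ARB and 182, 580.1 and 272 in ARNI, without overlap between SHR and WKY and at -1.08 ± 0.36 (SE, adjusted p = 0.0723).

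Of the 4 peroxisomal genes, 2 passed the test. Hsd17b4 (gene ID 79244), the D-bifunctional enzyme that hydrates and dehydrogenates very long and branched chains, was at 172, 162 and 183 CPM in WKY, 73.0, 126 and 71.9 in SHR, 68.3, 83.0 and 115 in ARB and 69.6, 166 and 106 in ARNI. It fell by 1.05 ± 0.26 (SE) on the log2 scale in SHR (adjusted p = 0.0368). Acaa1a (gene ID 24157), a peroxisomal thiolase with a close paralog, was at 34.1, 36.3 and 35.3 CPM in WKY, 17.8, 23.7 and 17.3 in SHR, 19.6, 20.1 and 22.1 in ARB and 15.5, 24.8 and 19.7 in ARNI. It fell by 0.97 ± 0.17 (SE; adjusted p = 0.0147), the smallest adjusted p of the 35 genes. In ARNI replicate 2 Acaa1a stood below all 3 WKY libraries, whereas Hsd17b4 stood within them. Ehhadh (gene ID 171142), the L-bifunctional enzyme, was at 24.5, 20.4 and 18.3 CPM in WKY, 10.99, 17.7 and 14.2 in SHR, 8.86, 9 and 14.5 in ARB and 7.88, 23.6 and 21.0 in ARNI, a change of -0.69 ± 0.22 (SE, adjusted p = 0.0642). Acox3, an oxidase for branched chains, was the steadiest of the 35, at 49.5 to 58.1 CPM.

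Beside the cycle, Mlycd (gene ID 85239) removes malonyl-CoA and was at 187, 173 and 184 CPM in WKY, 103, 162 and 91.7 in SHR, 95.7, 86.0 and 159 in ARB and 98.8, 249.6 and 104 in ARNI. Acot2 (gene ID 192272), a mitochondrial thioesterase, was at 230.4, 207 and 228 CPM in WKY, 65.1, 188 and 72.3 in SHR, 67.1, 65.8 and 135 in ARB and 61.9, 291 and 100.2 in ARNI. Neither overlapped between SHR and WKY, at -0.73 ± 0.25 (SE, adjusted p = 0.0774) for Mlycd and -1.14 ± 0.44 (SE, adjusted p = 0.102) for Acot2, and neither passed the test.

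A further 45 enzymes of fatty acid and ketone handling that are not among the 35 had 40 genes tested between SHR and WKY. Of these 10 were called lower and 1 higher, with a median log2 fold change of -0.58. The most negative were Acox2, a peroxisomal oxidase of bile acid intermediates and branched chains, at -2.53 ± 0.85 (SE, adjusted p = 0.0764), and Abcd3, a peroxisomal fatty acid transporter, at -1.43 ± 0.30 (SE, adjusted p = 0.0238). The most positive were Cpt1c, the form of CPT1 best known from neurons, at 0.83 ± 0.15 (SE, adjusted p = 0.0155), and Abcd2, another peroxisomal transporter, at 0.36 ± 0.24 (SE, adjusted p = 0.309). Of 13 regulators 4 were called lower, the nuclear receptors Ppara and Pparg and the coactivators Ppargc1a and Ppargc1b. Pparg also marks fat cells, and in ARB replicate 2 and ARNI replicate 3, the libraries with the most Adipoq, it stood at 18.3 and 17.0 CPM, against 2.71 to 9.75 CPM elsewhere. A reference list of 19 other mitochondrial genes, of the citrate cycle and respiratory chain, had 1 called lower and a median of -0.68. Citrate synthase, Cs, was at 790.3, 803 and 761 CPM in WKY, 336, 629.9 and 341 in SHR, 339.9, 352 and 519.6 in ARB and 380.2, 909 and 453 in ARNI, a change of -0.96 ± 0.29 (SE, adjusted p = 0.0582). Per Cs read, Acadm reads were 1.63 to 1.85 in WKY, 0.598, 1.68 and 0.694 in SHR and 0.517, 1.78 and 1.06 in ARNI, so the libraries with high Acadm were high relative to Cs as well. Hadha reads per Cs read stayed within 1.08 to 1.59.

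Levels were next compared with the Myl2 share within the 9 SHR-strain libraries (SHR, ARB and ARNI). The group was kept in the fit, and by the bracketed names strain did not vary. Of 34 genes tested 32 had a positive change with the share and 2 a negative one. Called higher were 27, against 10.8% of all 14278 genes tested, and called lower was 1, Acsl4, against 7.94%. The median change was 1.96 log2 units from a share of 0 to a share of 1, against -0.06 over all genes. With the replicate number as a block 1 of the 34 passed, Mlycd, which rose, against 0.882% of all genes called higher, and the median was 1.88. The values that follow are from the fit without the block. The steepest were Acsl6 at 5.35 ± 1.10 (SE, adjusted p = 0.0163), Acaa2 at 4.10 ± 0.79 (SE, adjusted p = 0.0131) and Acadm at 3.41 ± 0.71 (SE, adjusted p = 0.0169). In the shuttle Cpt2 rose by 2.51 ± 0.44 (SE, adjusted p = 0.01) and Slc25a20 by 2.19 ± 0.39 (SE, adjusted p = 0.0103), while Cpt1b rose by 0.82 ± 0.19 (SE, adjusted p = 0.0258) and Cpt1a, at 0.56 ± 0.19 (SE, adjusted p = 0.0727), did not pass. All 9 genes of the later beta-oxidation steps were called higher, Hadha and Hadhb at 1.98 and 1.93. So were 5 of the 6 dehydrogenases, Acad11 being the exception. All 3 electron transfer genes and 2 of the 4 peroxisomal genes, Hsd17b4 and Acaa1a, were called higher. Ehhadh, at 1.17 ± 0.43 (SE, adjusted p = 0.0982), and Acox3 did not pass. Acsl4 changed by -1.09 ± 0.20 (SE, adjusted p = 0.0115). The other 45 enzymes had 28 of 41 tested called higher (median 1.14), and the mitochondrial reference list 19 of 19 (median 1.38), so a rise with the share was shared by other mitochondrial genes.
The contrast rests on 3 libraries, SHR replicate 2 and ARB replicate 3 near 33% and ARNI replicate 2 near 100%, and none lies between. Without ARNI replicate 2, 24 of 34 genes were called higher, against 4.85% of all genes, and Acsl4, at -1.51, no longer passed. The median was then 3.55 against -0.14 over all genes. It extends to a share of 1 a fit whose highest shares were near 33%. Over the 25 genes at least 2-fold higher in ARNI replicate 2 than in SHR replicate 3 (Acsl3 and Acsl4 were at least 2-fold lower), positions were taken from SHR replicate 3 to ARNI replicate 2. SHR replicate 2 stood at a median of 0.571 of the way and ARB replicate 3 at 0.481. On the same scale Myl2 stood at 0.552 and 0.618 and Myl7 at 0.511 and 0.438. By these positions the share is not in proportion to the light-chain levels themselves. Markers of the chambers and of other cells also moved with the share. Of 13 atrial cardiomyocyte markers 11 were called lower and of 9 ventricular markers 8 higher. Of 5 mesothelial markers 4 were called lower, among them Msln at -3.00 ± 0.46 (SE, adjusted p = 0.0072). The erythroid sum was 887, 3845 and 965 CPM in the 3 libraries named above and 245 to 1102 CPM in the 6 others, with 1 of 5 tested called higher. The endothelial sum was 823, 654 and 895 CPM against 807 to 1639 CPM, with 1 of 6 called higher. Of 11 markers of all cardiomyocytes 3 were called higher, Tnnc1, Tnni3 and Pln, and of 6 smooth muscle and pericyte markers 1, Rgs5. Of 3 skeletal muscle markers tested 1 was called lower. Of the adipocyte, fibroblast and immune lists 0 genes were called. Their part in the result was not tested.

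**Figure D3:**
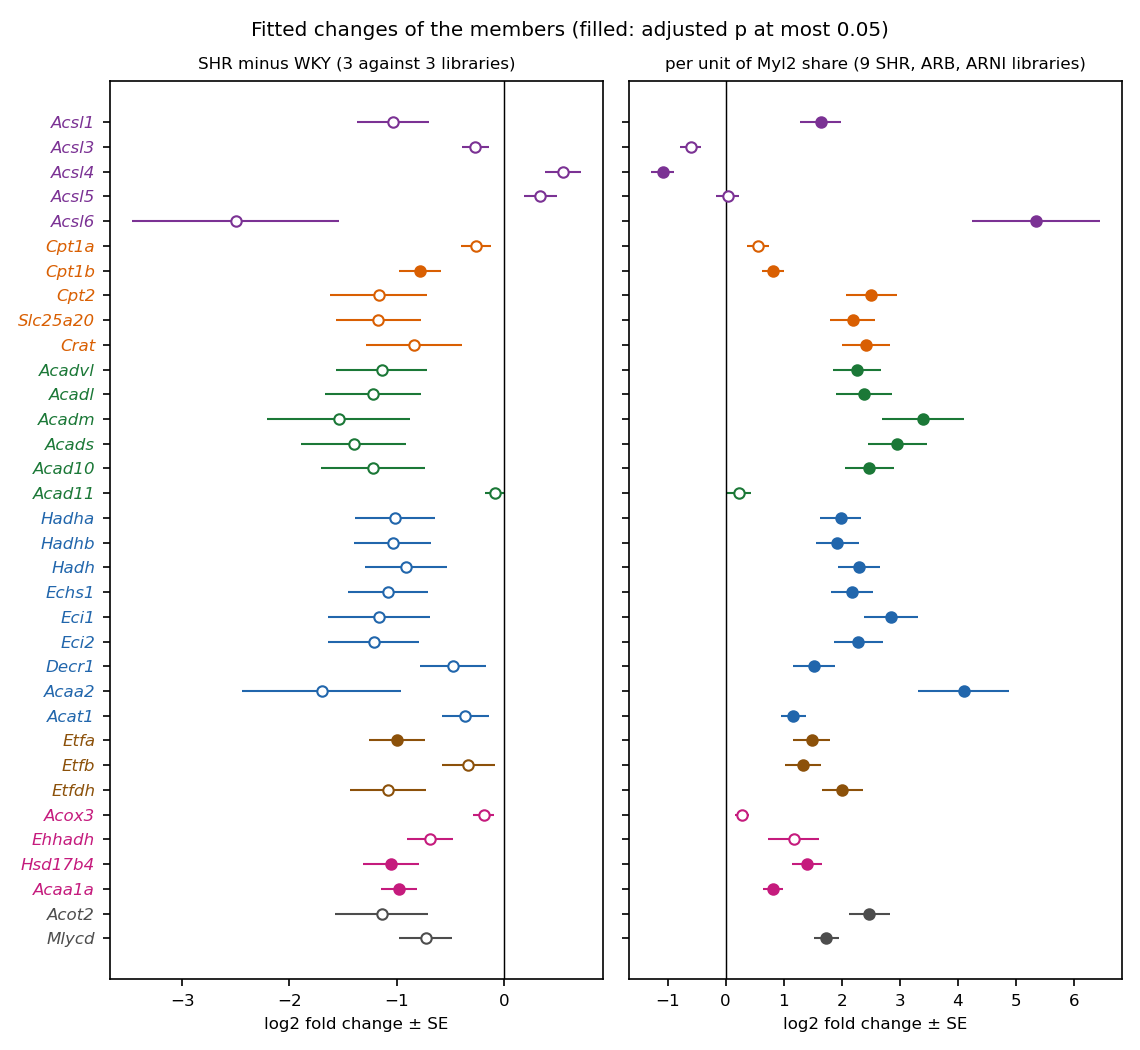
Log2 fold change with SE of the 34 tested genes (vertical axis, coloured by step as in the heat map), on the left for SHR minus WKY and on the right per unit of Myl2 share in the 9 SHR, ARB and ARNI libraries, where a filled point has an adjusted p of at most 0.05. On the left 4 points are filled and 32 lie below 0, and on the right 28 are filled, 27 of them above 0.

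**Figure D4:**
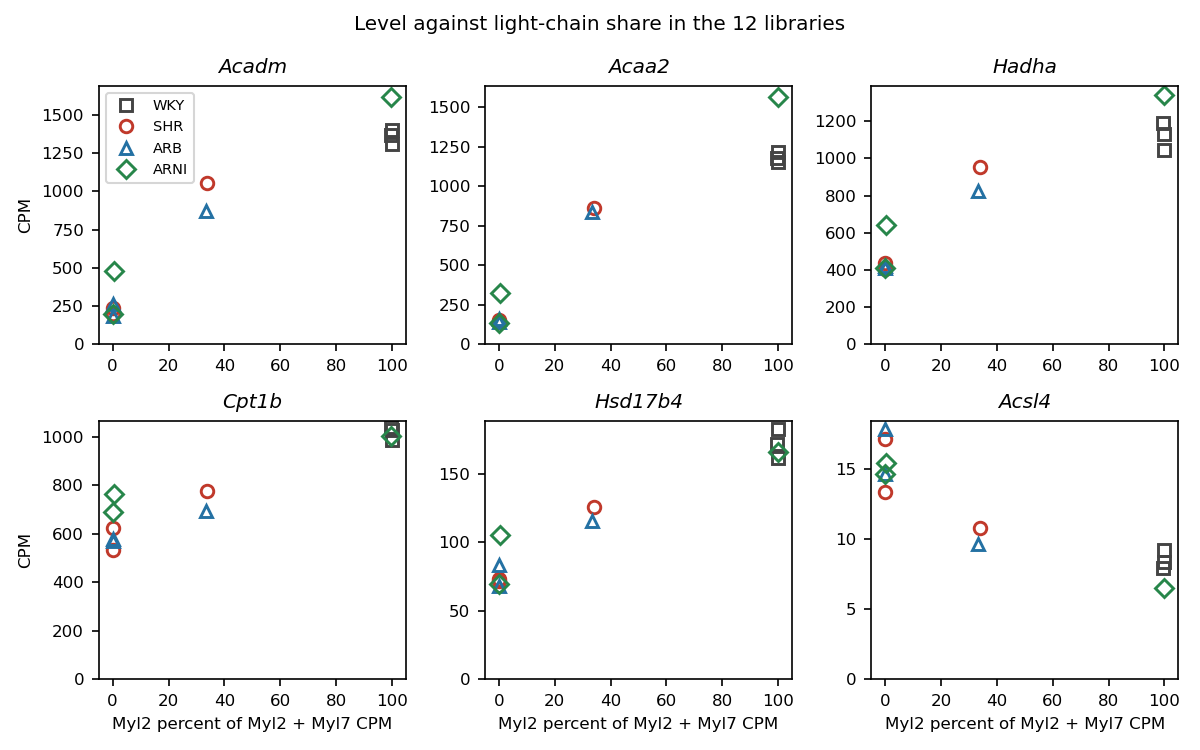
CPM (vertical axes, from 0) of Acadm, Acaa2, Hadha, Cpt1b, Hsd17b4 and Acsl4 against the Myl2 percent of Myl2 plus Myl7 CPM, 1 point per library, with WKY as squares, SHR as circles, ARB as triangles and ARNI as diamonds. ARNI replicate 2 lies beside the WKY squares in share, above them in level for Acadm, Acaa2 and Hadha and below them for Acsl4. The 2 libraries near 33% lie between, except that for Cpt1b ARB replicate 3 lies below ARNI replicate 3. Acsl4 runs downward.

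The library of an SHR-strain rat with nearly pure ventricular light chains, ARNI replicate 2, was close to WKY for these genes. Its CPM over the WKY mean had a median of 1.16 over 34 genes, against 0.945 over all genes tested. Of the 34, 2 differed more than 1.5-fold, against 17.6% of all genes tested. They were Crat, higher at 1.51 times the WKY mean, and Acsl3, lower at 0.492 times. The match to WKY in light-chain share did not extend to all chamber markers. The 9 ventricular markers summed to 19770 CPM in ARNI replicate 2, against 44074 to 44449.6 CPM in WKY. The 13 atrial markers summed to 1632 CPM, against 1896 to 2297 CPM. It is a single library from a drug-treated rat, so strain and drug cannot be told apart in it.

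Between the drug groups and SHR no gene of the 35 passed the test, and the sign of the small differences turned when single libraries were left out. In edgeR 0 of 34 genes passed for ARB against SHR, for ARNI against SHR and for ARNI against ARB, and 0% of all 13979, 13955 and 13948 genes tested passed. At an unadjusted p under 0.05 stood 225, 227 and 539 of all genes and 1, 0 and 1 of the 34. DESeq2 called 3, 9 and 23 genes and 0 of the 35. ARB and ARNI were set against the same SHR libraries, so their values are given side by side and not as independent results.
For ARB against SHR the median log2 fold change of the 34 genes was -0.06, with Cpt1a the most negative at -0.60 ± 0.17 (SE, adjusted p = 0.9999) and Eci1 the most positive at 0.16 ± 0.66 (SE, adjusted p = 0.9999). Cpt1a was below every SHR library in all 3 ARB libraries and above every ARB library in all 3 ARNI libraries, at 0.79 ± 0.21 (SE, adjusted p = 0.993) for ARNI against ARB. The unadjusted p was 0.00875 and 0.00784.
For ARNI against SHR the median was 0.44, and 31 of 34 genes were higher, from Acsl3 at -0.22 ± 0.22 (SE, adjusted p = 0.999) to Acaa2 at 0.93 ± 1.16 (SE, adjusted p = 0.999). Between ARNI and ARB the median was 0.57, from Acsl4 at -0.16 ± 0.33 (SE, adjusted p = 0.993) to Acsl6 at 1.36 ± 1.46 (SE, adjusted p = 0.993). The signs of these medians turned when single libraries were left out. Without ARNI replicate 2 the median turned to -0.19 against SHR and to -0.14 against ARB, and without SHR replicate 2 the ARB median turned to 0.48, while without ARB replicate 3 it was -0.60. The ARB median also turned to 0.12 without ARB replicate 1 and to 0.10 without ARB replicate 2, both libraries with a Myl2 share under 0.05%. With the Myl2 share as a covariate over all 12 libraries the medians were -0.04 for ARB against SHR, -0.06 for ARNI against SHR and 0.01 for ARNI against ARB.

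**Figure D5:**
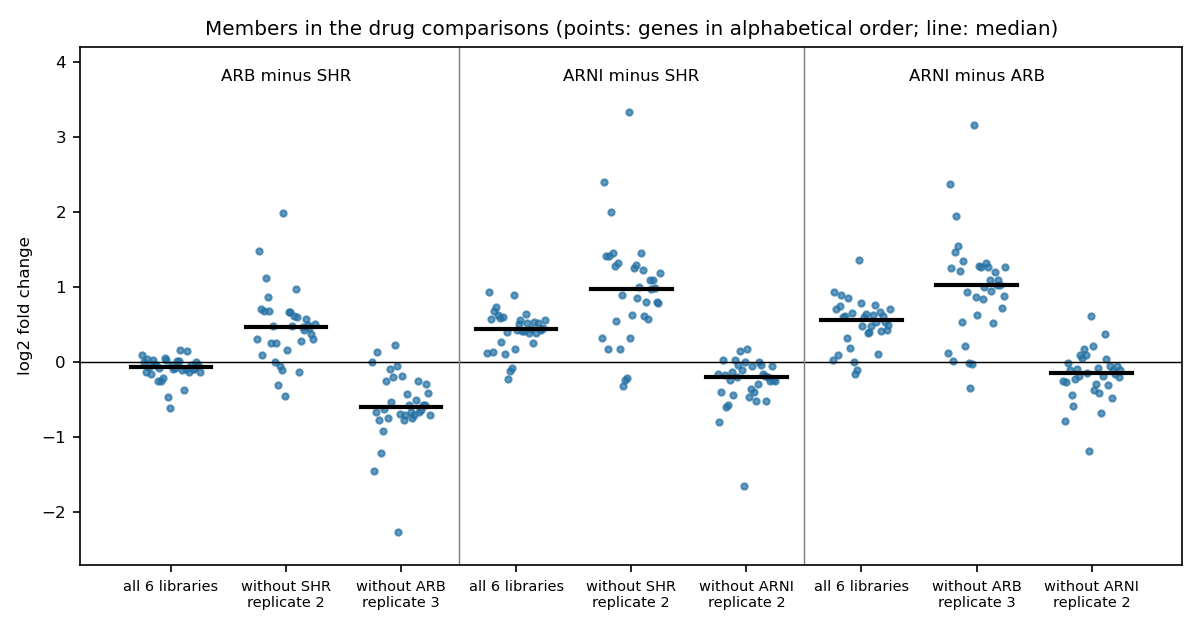
Log2 fold changes (vertical axis) of the 34 tested genes in ARB minus SHR, ARNI minus SHR and ARNI minus ARB, with all 6 libraries and without the library of each group that had the highest Myl2 share, 1 point per gene and a line at the median. The median crosses 0 in ARB minus SHR without SHR replicate 2 and in both ARNI comparisons without ARNI replicate 2.

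Among the 6 libraries with a Myl2 share under 1%, ARNI replicate 3 (0.319%) differed from the rest. It was above all 5 others, which had shares of 0.0015% to 0.046%, in 29 of 34 genes, against 22.0% of all 14278 genes. The other 5 libraries each topped the rest in 0 to 3 of the 34 genes, against 10.3% to 28.9% of all genes. As only 1 library can top a gene, these counts follow in part from that of ARNI replicate 3. Its level over the median of the 5 had a median of 1.52 over the 34 genes. Acadm, for example, was at 482 CPM in ARNI replicate 3 and at 186 to 266 CPM in the 5 others, and Acsl1 at 806 against 425 to 591 CPM. This library also held fat-cell transcripts: Ucp1, the uncoupling protein of brown fat, at 182 CPM, Adipoq at 61.7 CPM and Plin1 at 99.5 CPM. The summed level of the 10 adipocyte markers was 1699 CPM in it, 1323 CPM in ARB replicate 2 and 479 to 560.1 CPM in the other 4. ARB replicate 2 had more Adipoq, 192 CPM, and less Ucp1, 15.6 CPM, and topped the rest in 3 of the 34 genes. Ucp1 was at 0 in SHR replicates 1 and 3 and in ARNI replicate 1. The 6 markers of smooth muscle and pericytes summed to 775 CPM in ARNI replicate 3 against 183 to 291 CPM in the 5 others. Its atrial cardiomyocyte sum, 43835 CPM, was the lowest of the 6, the others holding 69902 to 90691 CPM. Its endothelial sum, 807 CPM, was likewise the lowest of the 6. The part of these other cells and of the slightly higher Myl2 share in the level of ARNI replicate 3 was not tested.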

How the data were processed

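RNA of 12 rats, from tissue labelled left atrium, was sequenced by the authors. The deposited table holds 1 expected count per gene and library. Per the labels and the study's methods, total RNA was extracted with Trizol, its mRNA was enriched on oligo(dT) beads, and it was sequenced in 50-base single reads on a BGIseq-500, filtered with SOAPnuke, aligned with HISAT2 2.0.4 and Bowtie2 2.2.5 on build Rnor_6.0 and counted with RSEM, which shares out reads of similar genes by estimate. Of 37246 genes listed, 21239 had counts. 23.6% of the values were not whole (tolerance 1e-09), and they were rounded for the tests. The deposited table also holds the authors' own log2 ratios of SHR to WKY and their p-values, which were not used.

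Samples were grouped by the bracketed library name. The 35 genes, the comparison lists and the tests were chosen with earlier results of these data known. Levels are CPM on total counts (11252361 to 15823525 per library, so that 3 reads equal 0.190 to 0.267 CPM, which covers counting error only). No gene lengths were used, so levels of different genes were not compared. Ratios and shares of reads between genes are compared between libraries only. Each pair of groups was fitted with edgeR 4.0.16 in R 4.3.3 (filterByExpr, TMM, glmQLFit and glmQLFTest, Benjamini-Hochberg over all genes tested), calling an adjusted p of at most 0.05. The Myl2 share was fitted likewise over 9 libraries with the group as a term. The labels name 3 samples per group, and p-values measure the spread between these. The fits were tested on simulated data.

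Values in every library were given for 15 genes chosen by role, for any gene called where at most 6 were called, and for the extremes of each comparison. Of the list of 45 other enzymes the 2 largest rises and falls were named. Other genes named were chosen after their values were seen. Alternatives were DESeq2 1.42.0, RLE factors, total counts, no filter, all 12 libraries in 1 fit, the replicate number as a block, the Myl2 share as a covariate or from 4 light chains, and each library left out. Between ARNI and SHR, same-numbered libraries deviated together from their group means (r = 0.509, 0.464 and 0.185 over 14452 genes). Replicate 2 had the highest Myl2 share in both groups, so a pairing by number cannot be told apart from a like chamber content. No label says what a number shares. Between ARB and SHR, where the highest shares were in replicates 3 and 2, r was 0.418, -0.241 and -0.254. For ARNI against SHR the block called 0 genes, as did the fit without it.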

Additional observations from a re-analysis of the deposited data

How the results depend on the processing

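The count of genes called between SHR and WKY depended on the libraries more than on the scaling. The main fit called 2837 genes and 4 of the 35. DESeq2 called 3649 genes and 22 of the 35, the fit of all 12 libraries 1178 genes and 1 of the 35, and the fit with the replicate block 1030 genes and 1 of the 35. Leaving out 1 library at a time gave 415 to 5310 genes and 0 to 31 of the 35, the highest without SHR replicate 2. With the Myl2 share as a covariate over all 12 libraries 64 genes and 0 of the 35 were called, and the log2 fold change reversed in 18 of the 20 genes followed: Acaa2 1.47, Acadl 0.72, Acadm 1.12, Acadvl 0.71, Acot2 0.88, Acsl1 0.33, Acsl4 -0.44, Acsl6 1.49, Cpt1a 0.22, Cpt2 0.88, Ehhadh 0.31, Etfa 0.25, Etfdh 0.58, Hadha 0.62, Hadhb 0.56, Hsd17b4 0.13, Mlycd 0.74 and Slc25a20 0.63. The sign of Acaa1a and Cpt1b was kept. The same covariate gave 2 genes called for ARNI against SHR and 2 for ARNI against ARB, with Acaa2 at -0.17 in the former and Acsl4 at 0.019 and Acsl6 at -0.57 in the latter. For the Myl2 share, the main fit called 2668 genes and 28 of the 35. The fit with the replicate block called 450 genes and 1 of the 35. Leaving out 1 library at a time gave 935 to 3286 genes, the lowest without ARNI replicate 2. Of the 35, 19 to 30 were called, the lowest without ARNI replicate 1, where 1260 of 14555 genes tested were called. Without ARB replicate 2 and ARNI replicate 3, chosen after their fat-cell transcripts were seen, 29 of the 35 were called. Of these 28 rose and 1 fell with the share, and over all genes 2616 of 14392 were called. The cause of these differences was not tested, other than that a library less leaves fewer samples. Same-numbered libraries did not deviate together between SHR and WKY (r = 0.026, -0.047 and -0.075). The WKY libraries differed little from each other, so these values cannot show whether a number pairs the samples. In the drug comparisons 0 genes were called by edgeR in the main fit, with the block and without any 1 library, while DESeq2 called 3 genes for ARB against SHR, 9 for ARNI against SHR and 23 for ARNI against ARB. Leaving out 1 library moved Eci1 from -0.67 to 0.98 in ARB against SHR, Acaa2 from -0.79 to 2.41 in ARNI against SHR, and Acsl4 from -0.34 to 0.094 and Acsl6 from -1.18 to 3.16 in ARNI against ARB. On TMM library sizes the summed CPM of the 35 genes in WKY became 17640.3. Total counts alone moved the median of all genes from 0.01 to 0.15 between SHR and WKY and from -0.06 to -0.30 for the share.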
